A study of Homo sapiens with 8 samples.

Results

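The genes described here are 7 receptors that guide T-cell precursors into, through and out of the thymus: the chemokine receptors CCR9, CCR7, CCR4 and CXCR4, the sphingosine-1-phosphate receptor S1PR1, and the integrin chains ITGA4 and ITGB7. They were chosen by name, with earlier results of these data known. All probe sets that the platform annotation assigns to 1 of these symbols alone were taken. This gave 12 of 54675 probe sets and 7 of 19775 annotated genes, with 1 probe set each for CCR9, CCR7, CCR4, S1PR1 and ITGB7, 3 for CXCR4 and 4 for ITGA4. All 12 passed the filter on dim probe sets, for which 2 or more of the 8 arrays had to exceed their own median. S1PR1 passed it through the 4 arrays of the TCR experiment, and it was above the median in 0 of the 4 hairpin arrays.

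The RNA came from ALL-SIL, an established human line of T-cell acute lymphoblastic leukemia in which the homeobox gene TLX1 is active. In the TCR experiment, all cells carried the lentiviral TCRα/β-GFP vector, built from the T-cell receptor of the Jurkat line, and were either kept for 48 h on OP9-DL1 (the group TCR_activation) or left without co-culture (no_TCR_activation). OP9-DL1 is a mouse bone marrow stromal line that displays the Notch ligand DL1, so stroma, Notch ligand and receptor engagement came together and cannot be told apart. In the hairpin experiment, cells carried either a hairpin against TLX1 (shRNA_TLX1) or the shRNA-pLKO.1-puro control vector (shRNA_control), and both were selected with puromycin; the labels name 1 TLX1 construct. The growth notes also describe a murine TCR-HY vector for this line, and the vector given here is the one on the samples themselves. Each of the 4 groups held 2 arrays. Nothing in the labels ties the 2 arrays of a group to different cultures, and the p-values then cover only how far arrays lie apart, which may be technical.

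T-cell precursors enter the thymus from the blood, and CCR9 and CCR7 on their surface read the chemokines CCL25, CCL19 and CCL21 that the thymus makes. CXCR4 holds immature cells in the cortex through CXCL12, while CCR4 and CCR7 appear as cells are selected and move to the medulla. Mature cells leave by S1PR1, which senses the lipid sphingosine-1-phosphate in blood. The chain α4, the product of ITGA4, pairs with β7 or β1 and binds MAdCAM-1 or VCAM-1 on vessel walls. In T-cell leukemia, CXCR4 and CCR7 are known for guiding cells to bone marrow and to the central nervous system.

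The stretches just before the start site of 4 of these genes are shown. CCR9 and CCR4 were both lower with the TLX1 hairpin, and S1PR1 and CXCR4 were both lower after co-culture. CCR7 was lower in both comparisons, with log2 changes of -3.06 (hairpin) and -0.34 (co-culture). The table of RefSeq start sites used here holds no stretch for CCR7, so it is not shown. In limma's fit of all arrays, CCR9 passed the adjusted p threshold of 0.05 with the hairpin (0.0222). CCR4 with the hairpin (0.208), and S1PR1 (0.0926) and CXCR4 (0.364) after co-culture, did not pass. Each stretch is the 250 bases before a RefSeq start (GRCh38.p14), written 5′ to 3′ on the gene's strand. For CCR9 (chr3:45886293-45886542, plus strand) all 250 bases, and for S1PR1 (chr1:101236769-101237018, plus strand) 120 of them, lie inside the gene's annotated span, since other transcripts start further upstream. The stretch of CCR4 (chr3:32951394-32951643, plus strand) and that of CXCR4 (chr2:136118150-136118399, minus strand) lie outside the span. Capitals mark the E-box CANNTG, the letters that E proteins read, and CACCC or its reverse complement GGGTG, the letters that Krüppel-like factors read.
CCR9: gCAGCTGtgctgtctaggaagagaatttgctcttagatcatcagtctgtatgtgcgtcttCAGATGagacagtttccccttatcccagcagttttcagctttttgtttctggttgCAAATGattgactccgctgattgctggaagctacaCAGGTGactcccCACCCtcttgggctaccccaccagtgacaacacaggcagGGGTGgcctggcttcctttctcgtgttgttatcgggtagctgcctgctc
CCR4: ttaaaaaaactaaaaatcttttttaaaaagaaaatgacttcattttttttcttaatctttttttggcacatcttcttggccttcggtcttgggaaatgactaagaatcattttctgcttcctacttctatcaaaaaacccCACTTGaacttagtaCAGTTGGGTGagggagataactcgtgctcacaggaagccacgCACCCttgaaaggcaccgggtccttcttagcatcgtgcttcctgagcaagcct
S1PR1: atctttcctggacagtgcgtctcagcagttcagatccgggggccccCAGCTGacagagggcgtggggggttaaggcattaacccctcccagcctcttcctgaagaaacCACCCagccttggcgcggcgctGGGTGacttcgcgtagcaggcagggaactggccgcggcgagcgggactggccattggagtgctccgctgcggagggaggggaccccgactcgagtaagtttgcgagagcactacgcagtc
CXCR4: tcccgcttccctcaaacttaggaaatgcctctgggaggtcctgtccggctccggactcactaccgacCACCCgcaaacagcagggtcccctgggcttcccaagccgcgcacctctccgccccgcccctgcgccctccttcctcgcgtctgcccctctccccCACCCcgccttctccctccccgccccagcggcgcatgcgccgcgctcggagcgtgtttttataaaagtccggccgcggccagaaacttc

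The CCR9 stretch held 4 E-box matches, CCR4 2, S1PR1 1 and CXCR4 0, and each of the 4 held 2 CACCC matches. The table gives CCR9 a second start, with 1 E-box match and 2 CACCC matches, and CXCR4 3 starts in all, the other two with 1 and 0 E-box matches and 2 and 3 CACCC matches. In CCR4, 1 E-box and 1 GGGTG share a base. Of the 7 genes, 6 had an entry among these start sites, with 9 starts in all, and CCR7 had none. An E-box was found before 6 of the 9 starts and CACCC before 9 of 9, on either strand. Among 35116 stretches of the same length in the table, 61.8% held an E-box and 54.7% held CACCC, so neither match is rare. The forkhead letters GTAAACA (2.98% of all stretches) and the homeodomain letters TAATTA (4.35%) were found before 0 of the 9 starts. A match is a run of letters and not a measured binding site.

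The arrays of the experiments differed in level and in spread. Arrays of different experiments correlated at 0.942 to 0.951 over all probe sets, and arrays within a group at 0.986 to 0.998. Over genes, the SD had a median of 0.06 and 0.04 in the groups without and with co-culture, and 0.17 and 0.11 in the control hairpin and TLX1 hairpin groups (log2, n = 2 arrays each). Of 9 T lineage markers, 9 were above the median in all 8 arrays, and so were 9 of 10 cortical thymocyte markers; RAG2, which cuts receptor genes together with RAG1, was above it in 0. TLX1 itself gave 8.66 and 8.27 with the control hairpin and 7.98 and 7.88 with the hairpin against it, and 8.57 to 8.70 in the TCR experiment. Its hairpin groups did not overlap, and the change of -0.53 (SE 0.15, limma adjusted p = 0.334) did not pass the test.

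In the hairpin comparison the 3 receptors that read thymic chemokines of the CC class, CCR9, CCR7 and CCR4, were all lower in both TLX1 hairpin arrays than in both control hairpin arrays. CCR9 fell 3.10-fold and was the 1 of the 7 genes that passed the threshold of an adjusted p of 0.05, in a comparison where 0.0916% of the 13102 genes tested passed it and 0.0305% passed it in the lower direction. CCR7 and CCR4 were 8.37-fold and 1.91-fold lower in the mean and did not pass. CXCR4 and ITGA4 differed by 0.00 and -0.07 on the log2 scale, while ITGB7 was 1.36-fold higher without passing. At an unadjusted p under 0.05, 3 of the 7 genes were lower and 1 higher, beside 4.77% and 4.21% of all genes. In the fit of all 30816 kept probe sets, 1 of the 12 passed, that of CCR9 (limma adjusted p = 0.0224), beside 0.0649% of all.

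The control hairpin arrays of CCR9, the receptor for CCL25, stood at 9.02 and 9.09, and those with the TLX1 hairpin at 7.55 and 7.29 (log2, probe set 207445_s_at). Both TLX1 hairpin arrays lay below both controls, with a gap far wider than the distance between arrays of a group. The log2 change was -1.63 (SE 0.14, 95% interval -1.95 to -1.32, limma adjusted p = 0.0222), the 9th lowest of 13102 genes. The call rested on the spread pooled over all 8 arrays: fitted on the 4 hairpin arrays alone, the adjusted p was 0.425 (unadjusted p = 9.73e-05) and 0 of 13102 genes passed. With array weights the adjusted p was 0.0759, and it lay between 0.0590 and 0.118 when any 1 array of the TCR experiment or of the TLX1 hairpin group was left out. With any 1 of the 8 arrays left out, the change of CCR9 stayed between -1.76 and -1.51. The pooled spread mixes the TCR arrays, quieter in the median over genes, with the hairpin arrays. On data simulated with these unequal spreads, the fit called 103 unchanged genes in the hairpin comparison, more than its threshold allows. The simulation took each gene's spread over few arrays as its true spread, and the measured values gave 12 calls in all. The adjusted p of CCR9 may therefore be too small, and by how much was not tested. Its own SDs were 0.04 and 0.18 in the hairpin groups, and 0.004 and 0.20 without and with co-culture. The SE of its hairpin change was 0.17 in the fit of the 4 hairpin arrays, against 0.14 in that of all 8.

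For CCR7 (206337_at), the receptor for CCL19 and CCL21, the control hairpin gave 7.91 and 9.23 and the TLX1 hairpin 4.38 and 6.63. The groups did not overlap, but their SDs of 0.93 and 1.59 were the widest among the 7 genes. Its mean change of -3.06 was the largest of all 13102 genes by size, in either direction. The SE was 0.68, the 95% interval ran from -4.64 to -1.49, and the gene did not pass (limma adjusted p = 0.230). One TLX1 hairpin array was below the array median, so the size of the difference is not exact: it was -1.94 without that array (shRNA_TLX1 replicate 1) and -4.19 without the other. Without shRNA_control replicate 1, CCR7 passed at a change of -3.72 (adjusted p = 0.0220), in a fit in which 1796 of all genes passed.

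CCR4 (208376_at), the receptor for CCL17 and CCL22, read 6.51 and 6.13 with the control hairpin and 5.54 and 5.23 with the TLX1 hairpin. Again both TLX1 hairpin arrays were lower, and 1 of them, at 5.23, was below the array median. The change was -0.93 (SE 0.20, 95% interval -1.39 to -0.47), and it did not pass (limma adjusted p = 0.208).

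CXCR4 (217028_at), the receptor for CXCL12, read 11.42 and 11.73 with the control hairpin and 11.49 and 11.67 with the TLX1 hairpin. The TLX1 hairpin arrays lay between the controls, and the 95% interval of the change was -0.31 to 0.31. Its other probe sets differed by -0.14 and -0.03, with overlapping groups as well. S1PR1 read 3.11 and 2.86 against 3.0 and 3.28 (204642_at), all below the array median, so a difference was not detectable at this level of signal.

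ITGB7 (205718_at), the β7 chain of the gut homing integrin, gave 6.73 and 6.72 with the control hairpin and 7.06 and 7.28 with the TLX1 hairpin. The groups did not overlap, and the change was 0.44 (95% interval 0.14 to 0.73, limma adjusted p = 0.365). ITGA4, its α4 partner, read 10.64 and 9.98 against 9.99 and 10.48 in 213416_at, which stands for the gene. These groups overlapped, with a change of -0.07 (95% interval -0.61 to 0.46). In all 4 ITGA4 probe sets replicate 1 was the higher control hairpin array and replicate 2 the higher TLX1 hairpin array. The groups overlapped in 3 of them; in 243366_s_at, which read 9.39 and 9.30 against 8.72 and 9.26, the change was -0.36 (limma unadjusted p = 0.0787).

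**Figure D1:**
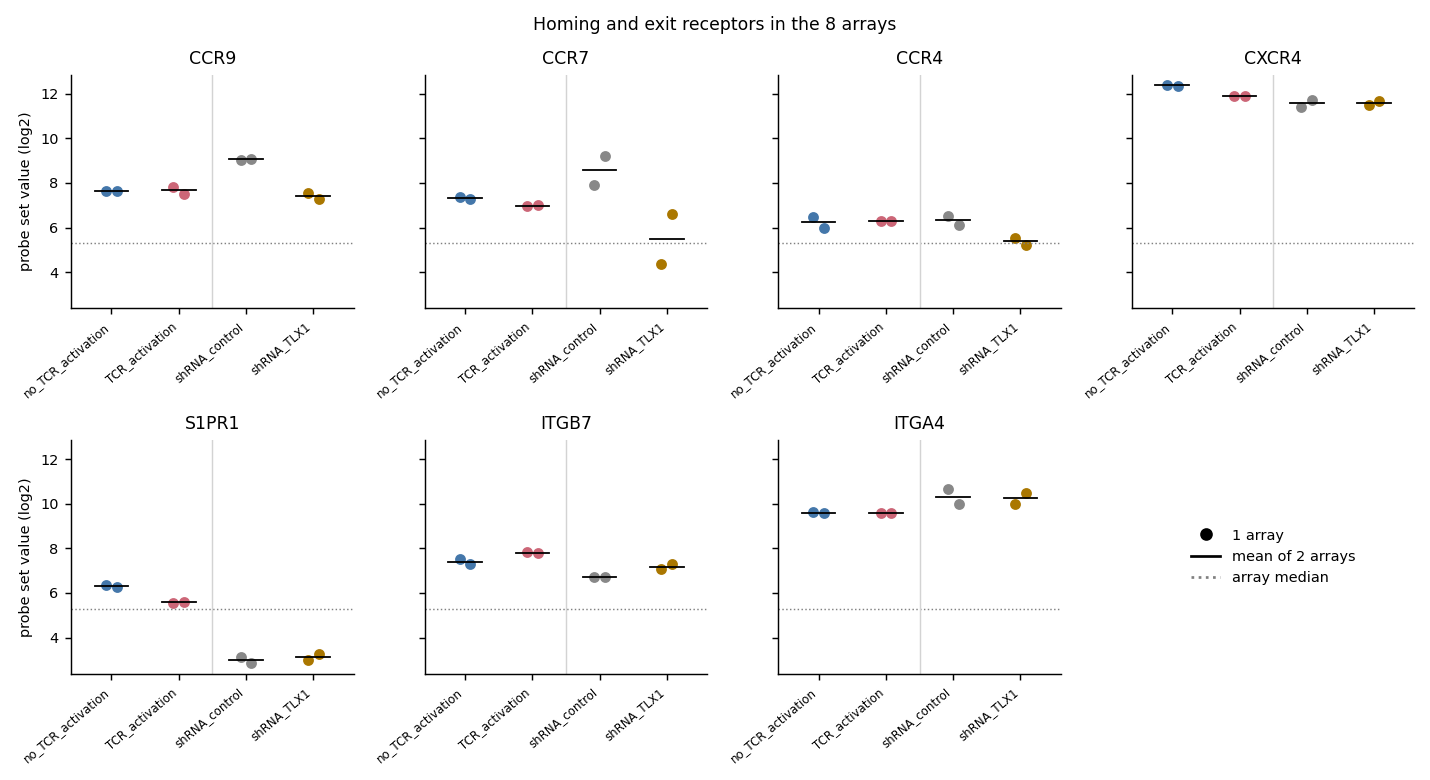
Value of the probe set that stands for each gene in each array (log2, vertical axis) by group (horizontal axis); points are arrays, bars the mean of 2 arrays, and the dotted line the array median. CCR9 and CCR4 are lowest in the shRNA_TLX1 group, CCR7 spans 4.38 to 6.63 there, and S1PR1 lies below the median in all 4 hairpin arrays.

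In the co-culture comparison, which sets TCR-expressing cells on the stroma against those off it, the ordering was different. The exit receptor S1PR1 was 1.66-fold lower and the retention receptor CXCR4 1.38-fold lower in the co-cultured arrays, ITGB7 was 1.32-fold higher, and CCR9, CCR4 and ITGA4 differed by at most 0.04 on the log2 scale. None of the 7 genes passed in limma's fit of all 8 arrays, where 0.618% of genes did; at an unadjusted p under 0.05 there were 2 lower and 1 higher, beside 3.43% and 3.98% of all genes. Of the 12 probe sets 0 passed, beside 0.490% of all kept. In the fit of the 4 arrays of the TCR experiment alone, 6.61% of genes passed, and among them were S1PR1 and CXCR4.

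S1PR1 read 6.34 and 6.28 without co-culture and 5.56 and 5.60 with it (log2). The co-cultured arrays were both lower, by far more than the distance between arrays of a group. The change was -0.73 (SE 0.14, 95% interval -1.05 to -0.41, limma adjusted p = 0.0926). In 4 of 18 alternatives it passed, and in 14 it did not. Those 4 were the fit of the 4 arrays alone (limma adjusted p = 0.00745), array weights (0.00122) and leaving out either control hairpin array. The fit of the 4 arrays alone passed 6.61% of all genes. Array weights also passed more of all genes than the unweighted fit of all arrays. Among left-out arrays, the counts of all genes were highest without a control hairpin array. With any 1 array left out, the S1PR1 change stayed between -0.75 and -0.70.

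CXCR4 read 12.38 and 12.36 without co-culture and 11.91 and 11.91 with it in its brightest probe set. The groups were well separated here, and they were separated in the same direction in both other probe sets, where the changes were -0.37 and -0.35. The change of the brightest was -0.46 (SE 0.13, 95% interval -0.77 to -0.15, limma adjusted p = 0.364). Of 18 alternatives it passed in 2, the fit of the 4 arrays alone (limma adjusted p = 0.0205) and array weights (0.0107). Both also passed more of all genes than the unweighted fit of all arrays. The 2 co-cultured values of CXCR4 were equal (SD 0), which makes the spread in the fit of the 4 arrays small. CCR7, at 7.38 and 7.27 against 6.97 and 7.0, was also lower in both co-cultured arrays, with a change of -0.34. The adjusted p was 0.0509 in the fit of the 4 arrays; in the fit of all 8 the hairpin arrays set its SE at 0.68, so that the 95% interval ran from -1.91 to 1.23.

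ITGB7 read 7.52 and 7.29 without co-culture and 7.81 and 7.79 with it. The co-cultured arrays were both higher, by 0.40 in the mean (95% interval 0.10 to 0.69, limma adjusted p = 0.471). With array weights, which passed more of all genes, the limma adjusted p was 0.0399. ITGB7 was thus the 1 gene of the 7 that was higher in both arrays of the treated group in both comparisons, and without array weights it passed in neither. CCR9 read 7.65 and 7.65 without co-culture and 7.81 and 7.53 with it, so the co-cultured arrays lay on either side of the others, and the 95% interval of the change was -0.30 to 0.34. CCR4 read 6.47 and 6.0 against 6.28 and 6.28, and ITGA4 9.62 and 9.58 against 9.57 and 9.58; both pairs of groups overlapped.

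Counted by arrays, the co-culture groups did not overlap for 3 lower genes (S1PR1, CXCR4 and CCR7) and 1 higher gene (ITGB7), and the hairpin groups for 3 lower (CCR9, CCR7 and CCR4) and 1 higher (ITGB7). Over all genes tested, 25.4% were lower and 32.0% higher without overlap in the co-culture comparison, and 14.6% and 14.1% in the hairpin comparison. The median change of the 7 genes was -0.02 in the co-culture comparison and -0.07 in the hairpin comparison, beside medians over all genes of 0.02 and -0.00. By size regardless of direction, the median was 0.34 and 0.44 for the 7 genes and 0.11 and 0.12 for all genes. The receptors were chosen with earlier results of these data known, so comparisons with all genes only describe them.

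**Figure D2:**
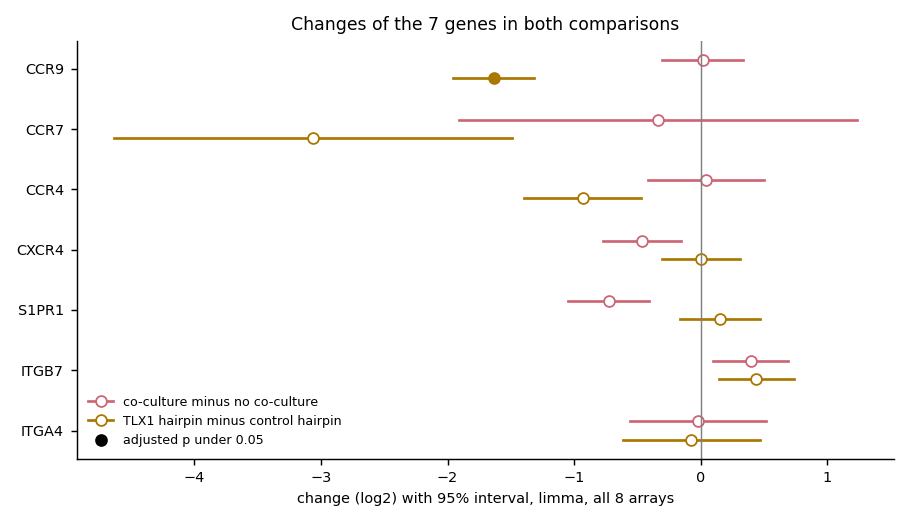
Change of each gene (log2, horizontal axis) with its 95% interval from limma's fit of all 8 arrays, for both comparisons; filled points have an adjusted p under 0.05. CCR9 with the TLX1 hairpin, at -1.63, is the 1 filled point, and the intervals of CCR7 are the widest.

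The difference between the 2 changes was tested in the same model, in which 0.382% of genes and 0.334% of kept probe sets passed. It passed for CCR9, where the co-culture change exceeded the hairpin change by 1.65 (95% interval 1.20 to 2.10, limma adjusted p = 0.0170; 0.0524 to 0.144 without any 1 array of the TCR experiment or of the TLX1 hairpin group). S1PR1 had a difference of -0.88 (limma adjusted p = 0.180), and -1.01 without shRNA_control replicate 1. All its hairpin values were below the array median, where a fall could hardly be seen. Its difference therefore mostly restates the co-culture change. For CCR7 the difference was 2.73 (adjusted p = 0.468) and for CCR4 0.98 (0.344), which did not pass. For ITGB7 it was -0.04 with a 95% interval of -0.46 to 0.38.

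**Figure D3:**
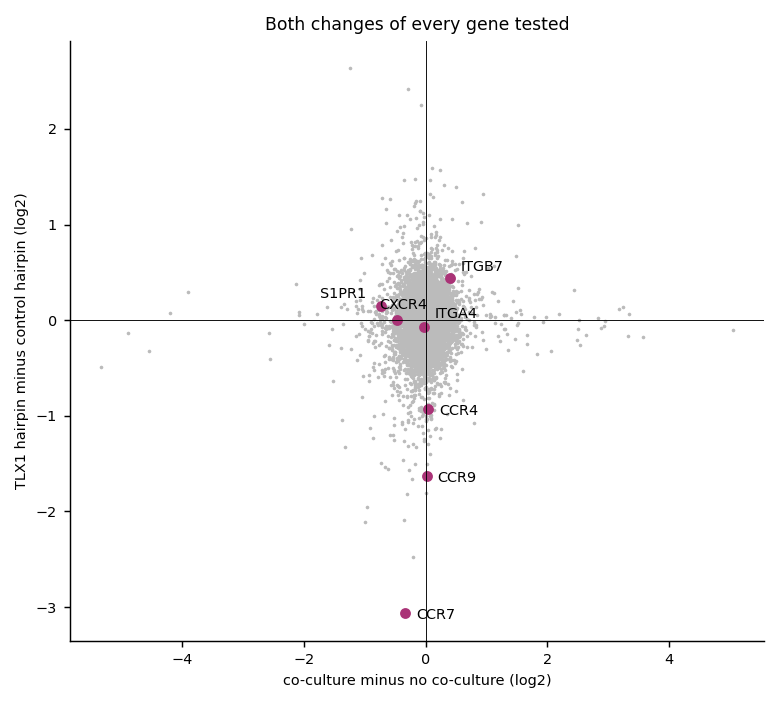
Co-culture change (log2, horizontal axis) against hairpin change (log2, vertical axis) for all 13102 genes tested (grey) and the 7 receptors (purple). CCR7, CCR9 and CCR4 lie low on the vertical axis with co-culture changes of -0.34 to 0.04, while S1PR1 and CXCR4 lie to the left with hairpin changes of 0.15 and 0.00.

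Levels over the 4 groups followed a different order for each gene. CCR9 was highest with the control hairpin (9.05 ± 0.04, mean ± SD, n = 2 arrays) and lay at 7.67 ± 0.20 with co-culture, 7.65 ± 0.00 without it and 7.42 ± 0.18 with the TLX1 hairpin; the co-cultured arrays overlapped both of the last groups, and the TLX1 hairpin arrays lay just below those without co-culture. CCR7 ran from the control hairpin (8.57 ± 0.93) through no co-culture (7.32 ± 0.08) and co-culture (6.99 ± 0.02) to the TLX1 hairpin (5.50 ± 1.59), and the spread of each hairpin group reached close to or past its neighbour. CXCR4 ran from no co-culture (12.37 ± 0.02) through co-culture (11.91) to both hairpin groups (11.58 ± 0.22 and 11.58 ± 0.12), which overlapped. ITGA4 was at 10.31 ± 0.46 and 10.24 ± 0.35 with the hairpins, which overlapped, and at 9.60 ± 0.03 and 9.57 ± 0.01 in the TCR experiment, which overlapped too. CCR4 was at 6.24 to 6.32 in 3 groups, which did not differ beyond their spread, and at 5.39 ± 0.22 with the TLX1 hairpin. ITGB7 ran from co-culture (7.80) through no co-culture (7.40) and the TLX1 hairpin (7.17) to the control hairpin (6.73), with the TLX1 hairpin and no co-culture arrays nearly touching at 7.28 and 7.29.

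Across experiments the widest gaps were those of S1PR1 and ITGA4. In the TCR arrays S1PR1 ranged from 5.56 to 6.34, and in those of the hairpins from 2.86 to 3.28. ITGA4 went the other way in all 4 of its probe sets, by 2.66 and 3.01 in 205884_at and 205885_s_at, and by 0.69 and 0.80 in 213416_at and 243366_s_at, so the size of this gap depended on the probe set. CXCR4 probe sets disagreed in direction: the brightest, 217028_at, was 0.56 lower in the hairpin experiment, and 209201_x_at and 211919_s_at were 0.36 and 0.62 higher. In all, 8 of the 12 probe sets did not overlap between experiments, beside 59.7% of all kept probe sets, so the count says nothing particular about these genes. The actin signal of the 3′ probe set minus that of the 5′ probe set, which grows as RNA is degraded, spanned 2.30 to 2.71 in the former and 0.57 to 0.83 in the latter. Vector and treatment differ between experiments too, and these cannot be told apart.

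**Figure D4:**
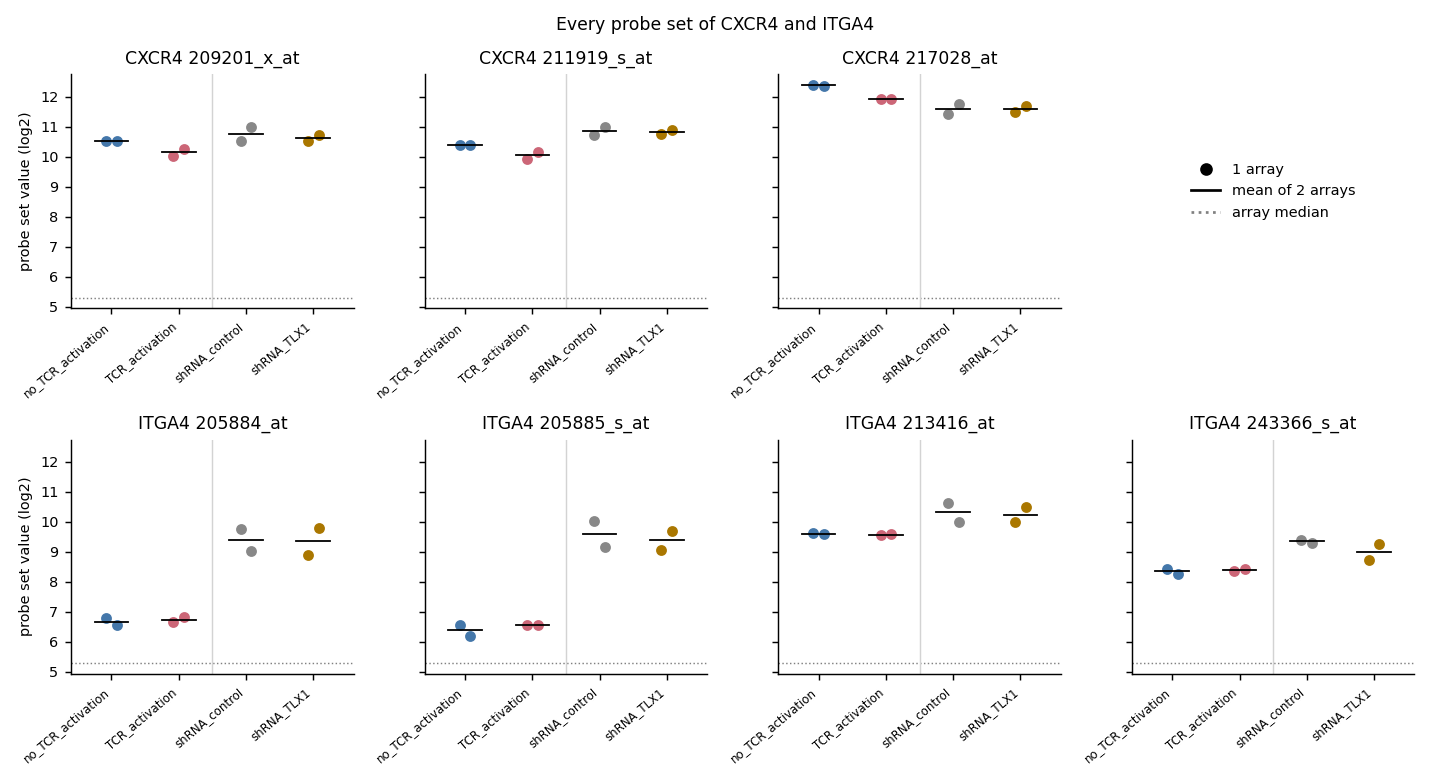
Value of each CXCR4 and ITGA4 probe set in each array (log2, vertical axis) by group; points are arrays, bars means of 2, the dotted line the array median. All 4 ITGA4 probe sets are higher in the hairpin arrays, by 0.69 to 3.01, whereas 1 CXCR4 probe set is lower there and the other two are higher.

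Between the genes, the 8 values were compared after the mean of each experiment was taken off, as a description of arrays that share a group. CCR9 and CCR4 had a Pearson correlation of 0.89, CCR9 and CCR7 of 0.80, and CXCR4 and S1PR1 of 0.77. ITGB7 ran against CCR9 at -0.70. ITGA4 and ITGB7, whose products pair, correlated at 0.06. These arrays share groups, so the values largely restate which genes differed between groups.

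By the same measure, the genes most like CCR9 among those tested were CDPF1 (0.99) and ZNF787 (0.99), those most like CCR7 were ZYG11B (1.00) and CTTN (0.99), and those most like CCR4 were IGHA1 (0.98) and FAM200B (0.98). CXCR4 was closest to RGS9 (0.99), a regulator of G-protein signalling, and DNAJB6 (0.98), S1PR1 to SP140L (0.99) and RBMS3 (0.98), ITGB7 to STOX1 (0.98) and HMGN5 (0.98), and ITGA4 to ENDOV (0.98) and FAM200C (0.97). Between 33 and 135 genes had a correlation over 0.9 with each member over these 8 arrays, so the highest ones single out little.

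Of 20 other chemokine receptors, 10 were tested, and 0 passed limma in either comparison. At an unadjusted p under 0.05, 2 were lower after co-culture, and with the TLX1 hairpin 2 stood higher and 1 lower. Over all genes, 3.43% were lower and 3.98% higher after co-culture by that measure, and 4.77% and 4.21% with the hairpin. These shares also apply to the lists below. CXCR6, a receptor of tissue-resident T cells, read 7.36 and 5.79 with the control hairpin and 9.41 and 8.57 with the TLX1 hairpin, a change of 2.42 (adjusted p = 0.166). CXCR3, a receptor of effector T cells, differed by 1.06 (adjusted p = 0.228), so CXCR6 and CXCR3 stood higher where CCR9, CCR7 and CCR4 stood lower. CCR1 differed by -0.92 (0.252). After co-culture, ACKR3, the scavenging receptor that also binds CXCL12, went from 8.22 to 7.18 in the mean (adjusted p = 0.311), CXCR5 from 7.0 to 6.20 (0.391) and CXCR3 from 6.48 to 6.91 (0.818). Among 6 ligands of the receptors described here, CCL25, CCL19 and CXCL12 were too dim to test. CCL17, CCL21 and CCL22 differed by at most 0.11 in size, and 0 passed, with 0 at an unadjusted p under 0.05.

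Of 15 genes of the sphingosine-1-phosphate pathway, 12 were tested. FOXO1, a transcription factor that drives S1PR1 and KLF2 in resting T cells, fell from 7.46 to 6.36 in the mean after co-culture (limma adjusted p = 0.0411). It was the 1 gene of the list to pass there, and 0 passed in the hairpin comparison. KLF2 was below the array median in the TCR experiment, at 5.14 in the mean without co-culture and 5.26 with it. With the control and TLX1 hairpins, where S1PR1 was below the median, KLF2 read 8.06 and 8.30. A link between FOXO1, KLF2 and S1PR1 was not tested. The FOXO1 call ended in 9 of 18 alternatives, among them without any 1 array of the TCR experiment or of the TLX1 hairpin group (adjusted p of 0.106 to 0.477), and with the stricter dim filter (0.0671). The lyase SGPL1 and the phosphatase PLPP1 differed by 0.13 and -0.15 after co-culture. With the TLX1 hairpin PLPP1 differed by 0.55 (adjusted p = 0.287), the lipid exporter SPNS2 by 0.31 and S1PR4 by 0.16. CD69, which pulls S1PR1 off the surface, was too dim to test. The list medians were 0.03 and 0.08.

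Of 24 other integrins, selectins and their ligands, 19 were tested and 0 passed limma in either comparison, with 1 lower and 0 higher at an unadjusted p under 0.05 in each. The hyaluronan receptor CD44, used by precursors on vessel walls, read 8.69 in the mean without co-culture and 8.00 with it (adjusted p = 0.0828), ICAM1 7.19 and 6.89, and ICAM2 10.39 and 10.56. With the TLX1 hairpin, ITGA2 differed by -0.31, ITGA6 by 0.59 and CD44 by 0.18, with adjusted p of 0.468 to 0.729. Of 16 genes that switch integrins to their binding form, 16 were tested and 0 passed in either comparison. At an unadjusted p under 0.05 there were 0 after co-culture and 4 higher with the TLX1 hairpin, beside 4.21% of all genes. RAPGEF1, an activator of the GTPase Rap1, differed by 0.77 there (adjusted p = 0.228), RAP1B by 0.42 and RASGRP1 by 0.33; after co-culture RASGRP2 differed by 0.50, RASGRP1 by -0.24 and RAP1B by -0.19.

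Of 34 genes that carry or switch off the signal of chemoattractant receptors, 33 were tested and 0 passed limma in either comparison, with 1 gene each way at an unadjusted p under 0.05 after co-culture and 2 lower ones with the TLX1 hairpin. RGS2, which shortens G-protein signals, differed by -1.05 after co-culture (adjusted p = 0.295) and by -0.80 with the TLX1 hairpin (0.441). CORO1A, an actin regulator needed for T cells to leave the thymus, differed by 0.30 after co-culture and RGS3 by -0.38. With the TLX1 hairpin the kinase subunit PIK3CG differed by -0.38 (adjusted p = 0.344) and RGS19 by -0.37. The list medians were -0.06 and 0.02.

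Marker genes of other cells moved with the co-culture. Of 13 granulocyte and myeloid markers, 9 were tested and 6 rose past the threshold, beside 0.618% of all genes past it in either direction. RNASE2 rose by 5.05, DEFA4 by 3.35 and PRTN3 by 3.33 (log2, limma adjusted p of 1.29e-06 to 1.43e-04), and the rest of the 6 by 0.81 to 2.83. RNASE2 and PRTN3 exceeded the array median in the 2 co-cultured arrays alone. They were thus tested only because they were high there, which raises the count of 6. The other tested markers did not pass: MPO, the myeloperoxidase of neutrophil granules, read 8.69 in the mean without co-culture and 7.97 with it (adjusted p = 0.156), and CSF3R and CSF1R, receptors for myeloid growth factors, differed by 0.12 and -0.03. The mean level of the 12 markers with a probe set was 5.05 to 5.08 without co-culture and 6.42 to 6.44 with it, and 4.62 to 4.81 in the hairpin arrays; the granule protease ELANE stayed below the array median in every array. Of 33 genes called lower after co-culture, 6 lie on chromosome Y, which holds 16 of the 13102 genes tested (0.122%). Whether both groups held the same population of cells was not tested, and this applies to S1PR1, CXCR4, CCR7, ITGB7 and FOXO1 alike. Of 13 stromal markers, 8 were tested and 0 passed, and their mean level was 5.50 to 5.78 without and 5.38 to 5.71 with co-culture. Of 7 B lineage markers, 4 were tested and 0 passed. The part of these shifts in the lower S1PR1 and CXCR4 values was not tested, and in bulk RNA fewer cells of a type and less RNA per cell cannot be told apart.

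With the TLX1 hairpin, 0 of the tested myeloid, stromal, B lineage, T lineage and cortical thymocyte markers passed limma. The unadjusted p was under 0.05 for 0 myeloid, 0 stromal and 1 B lineage marker. Of the others, 4 of 9 cortical markers were lower and 2 higher, and 3 of 9 T lineage markers were higher and 1 lower by that measure. Over all genes, 4.77% were lower and 4.21% higher. CD1A, a lipid-presenting molecule of cortical thymocytes, differed by -0.96 (adjusted p = 0.0682), CD1E by -0.76 (0.121) and RAG1 by -0.90 (0.126), in the direction of CCR9 and CCR4. DNTT, the enzyme that adds bases to receptor gene joints, and the coreceptor chain CD8A differed the other way, by 0.86 (adjusted p = 0.452) and 0.49 (0.380). The mean level of the cortical markers was 7.35 to 7.42 with the control hairpin and 7.06 to 7.30 with the TLX1 hairpin. Their part in the lower CCR9 and CCR4 values was not tested.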

How the data were processed

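The authors deposited log2 values for the probe sets of 8 Affymetrix arrays. The submitters' processing notes name RMA, affy and R 2.9.0. All arrays shared the lowest (2.15) and highest (14.3) value, as quantile normalization leaves them, so an overall shift cannot be seen. Symbols came from the platform annotation, updated by gene identifier (41043 of 41097 matched, 0 changed).

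Probe sets had to exceed the median of their array in 2 or more of the 8 (30816 did), and each gene was read from the brightest of those by mean (13102 genes). The test was limma 3.58.1 in R 4.3.3: lmFit with a mean for each of 4 groups, eBayes, and Benjamini-Hochberg adjustment over all genes at 0.05. The fit had 4 residual and 3.62 prior degrees of freedom; the number of arrays limits the precision. An adjusted p is from this fit unless another is named. The fit was tested on simulated data with each experiment's own spread, and its median estimates matched the planted sizes of change. Of 50 genes lowered by 1 (log2), it called 28 for co-culture and 33 for the hairpin. Of 50 lowered by 2, it called 45 and 47. Changes of such sizes can thus be missed. False calls were few for co-culture. They were more than the threshold allows for the hairpin, whose arrays vary more than the pooled spread. The receptors, the gene lists and their tests were chosen with earlier results of these data known. The genes named were the 7 receptors, TLX1, from each pathway list the genes past the threshold and the 3 with the smallest p per comparison, from each marker list at most 3 past the threshold, and the 2 genes most like each receptor. Genes chosen outside this rule after their values were seen are CD69, KLF2, MPO, CSF3R, CSF1R, DNTT, CD8A, CD1A, CD1E, RAG1, RAG2, ELANE, CCL25, CCL19 and CXCL12. Alternatives covered the filter, probe set choice, groups fitted, array weights, an intensity trend, normalization, the replicate block and each array left out.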

Additional observations from a re-analysis of the deposited data

How the results depend on the processing

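Of 371 alternative values of the 7 genes' changes and their difference, 332 kept direction and side of the threshold, 14 lost the call, 13 gained one and 12 changed sign; the sign changes were of changes that had not passed. After co-culture, ITGA4 was 0.062 with the mean of probe sets, CCR4 -0.19 without no_TCR_activation replicate 2 (highest 0.28) and CCR9 -0.12 without TCR_activation replicate 1 (highest 0.16). With the TLX1 hairpin, CXCR4 was -0.056 with the mean of probe sets, -0.16 without shRNA_control replicate 1 and -0.09 without shRNA_TLX1 replicate 2 (highest 0.16), and ITGA4 was 0.25 and 0.17 without replicate 1 of either hairpin group (lowest -0.40). The difference was -0.28 and -0.20 for ITGA4 without those same arrays (highest 0.38), and 0.076 and 0.07 for ITGB7 without no_TCR_activation replicate 1 and shRNA_TLX1 replicate 2.

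After co-culture 0 of the 7 genes and 81 of all genes passed; 2 and 866 did when only the 2 groups compared were fitted, 3 and 718 with array weights, and 25 of all genes with the stricter dim filter. Of the 12 probe sets, 0 passed, and 1 with the 2 groups alone. In the hairpin comparison 1 and 12 passed, against 0 and 0 with the 2 groups alone (0 probe sets) and 0 and 1 with array weights. The difference gave 1 and 50, and 25 of all genes with the stricter filter. Left-out arrays moved these counts from 0 to 1 and 29 to 217 (co-culture), 0 to 2 and 0 to 1796 (hairpin), and 0 to 2 and 14 to 908 (difference). The cause of these moves was not tested. The highest counts came without shRNA_control replicate 1, and for co-culture without either control hairpin array.

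Arrays of the same replicate number deviated from their group means with a correlation of -0.14 (co-culture) and 0.35 (hairpin), so the numbers were not taken as pairs. With the number as a replicate block, 73 of all genes passed after co-culture, and CCR9 and CCR7 (2 genes, 2 probe sets; CCR7 adjusted p = 0.0447) passed in the hairpin comparison, with 2 genes and 2 probe sets for the difference. FOXO1 lost its call after co-culture with the block (adjusted p = 0.102) and with the crossed numbers. With the numbers crossed in the TCR experiment, chosen after seeing the data, 0 and 71 passed after co-culture. There were 2 in the hairpin comparison and 2 in the difference. For the hairpin comparison and the difference, the share of all genes passing with the block is not given here. These calls therefore do not set CCR9 or CCR7 apart.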
